A study of Mus musculus with 10 samples.

Results

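The 4 lungs of lowest fibrillar collagen expression in a set of 10 bleomycin-treated mouse lungs were compared with the other 6. Each library was given a collagen score, the mean of log2(CPM + 1) of Col1a1, Col1a2 and Col3a1, with CPM (a gene's count scaled to a common library size) taken over the library's total count, and the 4 libraries of lowest score formed the low-collagen set. Col1a1 and Col1a2 encode the chains of type I collagen, and Col3a1 encodes type III collagen. The libraries were thus chosen by the measured levels of these 3 genes and not by a treatment. The counts of genes that went with the sets therefore describe what varied together with collagen in these 10 lungs, and the 3 scoring genes are left out of every such count.

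All 10 libraries came from lung tissue of wild-type mice given bleomycin, a drug that breaks DNA, injures the alveoli and leads to lung fibrosis. Every mouse had also been injected with bone marrow cells, of high aldehyde dehydrogenase (ALDH) activity in 5 mice (ALDHbr) and of low activity in the other 5 (ALDHdim). ALDH enzymes oxidise aldehydes, and their activity is often used to enrich progenitor cells. The labels give no age, dose or day, and do not say that each library came from a separate animal, so the p-values measure only the spread between these libraries. Neither uninjured lungs nor injured lungs without transferred cells were analysed here, so "low" means low among injured lungs that received cells. The low-collagen set held the libraries ALDHbr 2, ALDHbr 3, ALDHdim 2 and ALDHdim 3, which is 2 of 5 in each transfer group (Fisher's exact test, two-sided, p = 1). These are the libraries labelled replicate 2 and replicate 3 in both groups, and the other set holds all those labelled 1, 4 and 5. The labels do not say what a replicate number marks, so collagen level and replicate number cannot be told apart.

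In injured lung, fibroblasts secrete fibrillar procollagens that are hydroxylated and folded in the endoplasmic reticulum, cleaved outside the cell and crosslinked by lysyl oxidases. Type V collagen, fibronectin, tenascin-C and the fibrillins and elastin of the elastic fibre are laid down in the same matrix, and latent TGF-beta, the main growth factor known to drive matrix genes in this tissue, is stored on it. Bleomycin injury is also known for recruited macrophages and for a transitional, keratin-rich state of the alveolar epithelium, so markers of those cells are given beside the matrix genes.

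The score ran from 7.43 to 9.94, a 5.71-fold range of collagen level. ALDHbr 2 scored 7.43, ALDHbr 3 scored 7.51 and ALDHdim 2 scored 7.77, close together at the bottom. ALDHdim 3 scored 8.98 and was the last library inside the low-collagen set. Just outside were ALDHbr 5 at 9.35, ALDHbr 4 at 9.38, ALDHdim 1 at 9.40 and ALDHbr 1 at 9.55, and ALDHdim 4 and ALDHdim 5 were highest at 9.88 and 9.94. The step from the third to the fourth library was 1.22 and the step across the boundary of the sets only 0.37, so ALDHdim 3 lay nearer to the other lungs than to the 3 libraries below it. The data thus hold 3 lungs of clearly low collagen and 1 of intermediate level. The same 4 libraries were lowest after TMM scaling, with a pseudocount of 5, and with any 1 of the 3 genes left out.

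By gene, Col1a1 stood at 128 CPM in ALDHbr 2, 93.6 in ALDHbr 3, 166 in ALDHdim 2 and 392 in ALDHdim 3, against 465 to 889 in the other 6. Col1a2 stood at 233, 229, 300 and 502 CPM in the same 4 libraries, against 693 to 1053. For Col3a1 the 4 values were 168, 280, 204 and 653 CPM, against 735 to 1015. All 3 genes put ALDHdim 3 well above the rest of its set, and no level of the low-collagen set reached the other lungs, which the choice of the sets makes likely.

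**Figure D1:**
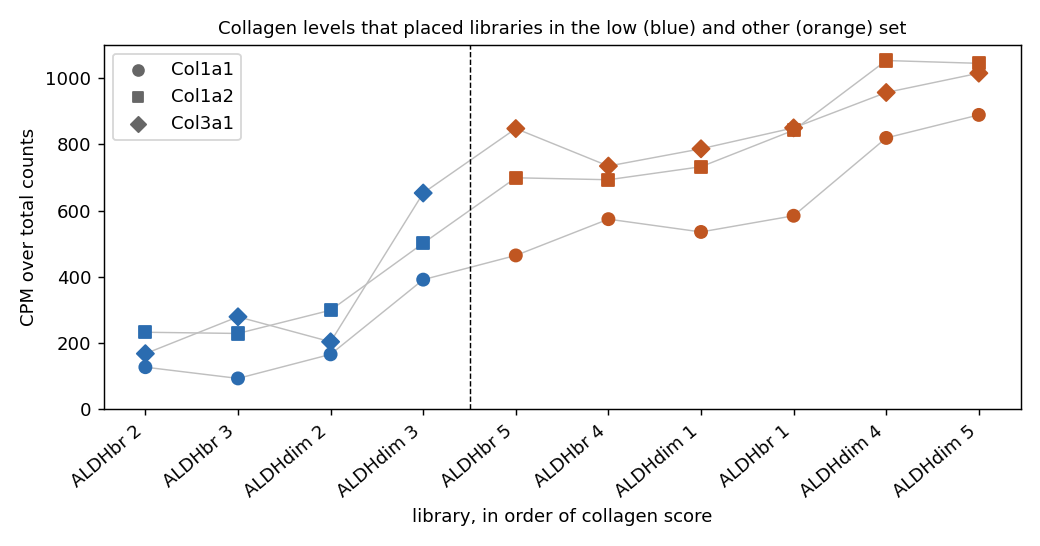
Col1a1, Col1a2 and Col3a1 in CPM over total counts (vertical axis) in the 10 libraries ordered by collagen score (horizontal axis), with the 4 low-collagen lungs in blue and the other 6 in orange, and grey lines joining the points of 1 gene only to guide the eye. Col1a1 runs from 93.6 to 392 CPM left of the dashed line and from 465 to 889 right of it, and ALDHdim 3 sits near the line.

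Total counts ranged from 588063 to 2002947 per library, and the lowest and the highest total were both in the low-collagen set (ALDHbr 2 and ALDHdim 2). The difference in total counts was within the spread of the sets (exact permutation test of the means, two-sided, p = 0.41, adjusted over 5 measures 0.90). Without ALDHdim 2 the mean total was 516808 counts higher in the other lungs (exact permutation p = 0.036, adjusted 0.18). With any other single library left out, the exact permutation p for total counts was 0.36 to 0.87. Hemoglobin genes took 1.25% ± 0.11 of counts in the low-collagen set (SD, n = 4, from 1.10 to 1.35%). In the other set they took 0.68% ± 0.50 (SD, n = 6, from 0.16 to 1.37%), with an exact permutation p of 0.081 (adjusted 0.40). Without ALDHbr 4 the exact permutation p was 0.024 (adjusted 0.12). With any other single library left out it was 0.063 to 0.155 (adjusted 0.32 to 0.77). Mitochondrially encoded genes took 7.22% ± 0.71 (SD, n = 4) and 6.91% ± 1.46 (SD, n = 6; exact permutation p = 0.72). ALDHbr 3 and ALDHbr 5, one in each set, had more genes detected at equal depth (22807 and 21577) than the other 8 libraries (16228 to 18056). Lung genes were abundant in every library, with Sftpc of alveolar type 2 cells at 14603 CPM or more and Scgb1a1 of club cells at 13472 CPM or more. Markers of cartilage and of skeletal muscle summed to between 3.99 and 30.4 CPM, and none of them passed the low-count filter.

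Between the sets, 5 of 10841 tested genes had an adjusted p under 0.05 by edgeR's quasi-likelihood test, which is 0.0461%. Ltbp2, Lox, Col5a1 and Fbn1 rose, by which is meant throughout that they were higher in the 6 other lungs than in the 4 low-collagen lungs (4 genes, 0.0369%), and Sult1d1 fell (1 gene, 0.00922%). All 4 that rose encode proteins of the collagen fibril, its crosslinks or the microfibril of the elastic fibre. At an unadjusted p under 0.05 stood 704 genes higher (6.49%) and 600 lower (5.53%) in the other lungs. Levels did not overlap between the sets for 181 genes that were higher (1.67%) and 149 that were lower (1.37%). These shares are the background for the counts of list members below. The median log2 fold change of all tested genes was -0.01, with 5260 estimates above and 5581 below 0.

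With the transfer group added to the fit, 26 genes passed (0.240%), 19 higher (0.175%) and 7 lower (0.0646%), and all 5 named above were among them. With the collagen score itself in place of the 2 sets, 206 genes passed (1.90%), 137 rising with the score (1.26%) and 69 falling with it (0.636%). These included the same 5 and 24 of the 26. The median half-width of a gene's 95% interval was 0.43 on the log2 scale. The 5 calls rest on single libraries: without ALDHbr 2, and likewise without ALDHdim 5, no gene passed. At an unadjusted p under 0.05 there were then 529 higher and 391 lower genes, and 511 higher and 451 lower genes. With the same-numbered libraries summed, so that 2 numbers are set against 3, no gene passed either (edgeR, smallest adjusted p = 0.34, 517 higher and 382 lower at an unadjusted p under 0.05).

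The starts of the called genes show what kind of promoter each has. RefSeq's table for GRCm38.p6 gave the 300 bases from 250 before to 50 after the start for 4 of the 5 called genes, all but Lox. They are printed 5′ to 3′ on the gene's own strand, with every CG dinucleotide in capitals, because the windows of the 3 genes that rose hold more of them than that of the 1 that fell.
Ltbp2: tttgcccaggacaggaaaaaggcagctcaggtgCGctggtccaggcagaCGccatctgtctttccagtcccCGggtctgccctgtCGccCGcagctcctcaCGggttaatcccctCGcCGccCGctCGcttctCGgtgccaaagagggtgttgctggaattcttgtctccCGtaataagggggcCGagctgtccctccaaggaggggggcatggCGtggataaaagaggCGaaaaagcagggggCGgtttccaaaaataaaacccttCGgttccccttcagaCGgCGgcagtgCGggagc
Fbn1: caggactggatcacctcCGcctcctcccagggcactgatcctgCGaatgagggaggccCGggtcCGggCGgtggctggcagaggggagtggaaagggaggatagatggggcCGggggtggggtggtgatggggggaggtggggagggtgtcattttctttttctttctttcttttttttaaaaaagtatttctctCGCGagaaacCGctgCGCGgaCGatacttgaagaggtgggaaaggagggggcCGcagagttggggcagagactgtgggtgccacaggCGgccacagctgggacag
Col5a1: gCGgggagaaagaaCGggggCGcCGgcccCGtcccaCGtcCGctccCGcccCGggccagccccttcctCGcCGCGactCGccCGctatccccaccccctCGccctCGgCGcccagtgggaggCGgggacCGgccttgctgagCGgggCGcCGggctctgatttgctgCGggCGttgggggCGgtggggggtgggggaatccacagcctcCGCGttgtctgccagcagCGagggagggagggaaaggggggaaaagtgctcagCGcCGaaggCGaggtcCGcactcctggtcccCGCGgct
Sult1d1: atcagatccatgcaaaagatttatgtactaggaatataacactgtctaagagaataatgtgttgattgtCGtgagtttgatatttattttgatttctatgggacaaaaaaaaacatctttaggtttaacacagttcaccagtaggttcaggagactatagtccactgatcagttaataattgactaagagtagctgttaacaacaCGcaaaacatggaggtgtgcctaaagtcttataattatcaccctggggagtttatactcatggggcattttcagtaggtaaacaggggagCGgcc
RefSeq's start of Fbn1 lies inside the span that GENCODE gives the gene, which also holds a transcript starting farther upstream. The Ltbp2 window is chr12:84876442-84876741 (minus strand) and holds 20 CG. Fbn1 lies at chr2:125506389-125506688 (minus strand) with 14, Col5a1 at chr2:27886175-27886474 (plus strand) with 34, and Sult1d1 at chr5:87568957-87569256 (minus strand) with 3. Over all 32851 windows of this length the median is 7 CG, counted on the printed strand, and 94.6% hold at least 1 (the motif reads the same on both strands and cannot overlap itself). Of these windows 73.5% hold fewer CG than that of Ltbp2 and 63.7% fewer than that of Fbn1. For Col5a1 the share is 92.3% and for Sult1d1 23.3%. The GC content was 61% for Ltbp2, 60.3% for Fbn1, 75% for Col5a1 and 37% for Sult1d1, beside a median of 52.7%. With 4 windows this is a description of these genes and not a property shown to go with collagen.

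Genes of the fibrillar collagens and fibrotic matrix beyond the scoring genes had lower estimates in the low-collagen lungs for 22 of 23 tested members. Among them 1 rose past the threshold (Col5a1), 17 were higher and 0 lower at an unadjusted p under 0.05, and 10 had levels that did not overlap. Its members had a median log2 fold change of 0.75, beside -0.01 over all genes. Its summed level (over total counts without TMM scaling, as for all list sums) was 4064 to 7406 CPM in the low-collagen lungs and 7583 to 8930 CPM in the others.

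Col5a1 (ENSMUSG00000026837, chr2:27886425-28039514 on GRCm38, plus strand) encodes the type V collagen chain that nucleates collagen fibrils. It stood at 11.7 CPM in ALDHbr 2, 9.06 in ALDHbr 3, 14.1 in ALDHdim 2 and 23.0 in ALDHdim 3, and at 27.5 to 41.9 CPM (median 37.6) in the other 6. Every low-collagen lung lay under every other lung, with ALDHdim 3 and ALDHbr 4 the nearest. The log2 fold change was 1.28 ± 0.23 (SE, adjusted p = 0.046 by edgeR). Its partner chain Col5a2 stood at 29.3, 56.9, 45.4 and 80.0 CPM in ALDHbr 2, ALDHbr 3, ALDHdim 2 and ALDHdim 3, against 98.0 to 209 CPM (median 135). The sets did not overlap, but the log2 fold change of 1.37 ± 0.25 had an edgeR adjusted p of 0.075.

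Fn1 encodes fibronectin, the early scaffold on which collagen assembles. Its levels were 64.5 CPM in ALDHbr 2, 180 in ALDHbr 3, 131 in ALDHdim 2 and 213 in ALDHdim 3, and 371 to 810 CPM (median 472) in the other lungs. There was no overlap, and ALDHdim 4 and ALDHdim 5, the libraries of highest collagen, were also the 2 highest for Fn1 at 796 and 810 CPM. The log2 fold change was 1.90 ± 0.33 (SE, edgeR adjusted p = 0.075). Tnc encodes tenascin-C, a matrix protein of wound repair. It had 0 counts in ALDHbr 2, which allows up to 5.10 CPM (3 counts of the library's total, counting error only), 16.8 CPM in ALDHbr 3, 4.54 in ALDHdim 2 and 23.8 in ALDHdim 3, against 33.6 to 83.5 CPM (median 50). Its sets did not overlap either, with an edgeR adjusted p of 0.13 for a log2 fold change of 2.19 ± 0.53.

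Ccn2, a matricellular protein known as a TGF-beta target, stood at 102, 151, 154 and 157 CPM in ALDHbr 2, ALDHbr 3, ALDHdim 2 and ALDHdim 3 and at 213 to 244 CPM in the others. Those levels formed 2 tight groups apart from ALDHbr 2, with a log2 fold change of 0.65 ± 0.13 (edgeR adjusted p = 0.075). C1qtnf6, a secreted protein with a collagen-like domain, stood at 11.7, 9.06, 5.55 and 12.8 CPM against 17.0 to 30.8 CPM (log2 fold change 1.44 ± 0.27, edgeR adjusted p = 0.068). Cthrc1, a marker of matrix-producing fibroblasts, stood at 3.91 to 7.76 CPM in the low-collagen set and 8.23 to 24.7 CPM in the other set. Few counts lie behind it and its edgeR adjusted p was 0.16. Postn, which encodes periostin, overlapped widely, with ALDHdim 2 at 228 CPM and the other set at 114 to 253 CPM (log2 fold change 0.49, or 0.31 without ALDHbr 2 and 1.01 without ALDHdim 2). Sparc, a collagen-binding protein, was 2221 to 2946 CPM in the 3 lowest lungs and 4378 CPM in ALDHdim 3, above all 6 other lungs (3725 to 4128 CPM; log2 fold change 0.41, or 0.66 without ALDHdim 3). Among further members, named after their values were seen, Thbs1 had a log2 fold change of 1.44 ± 0.34 and Tgfbi one of 0.77 ± 0.17.

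**Figure D2:**
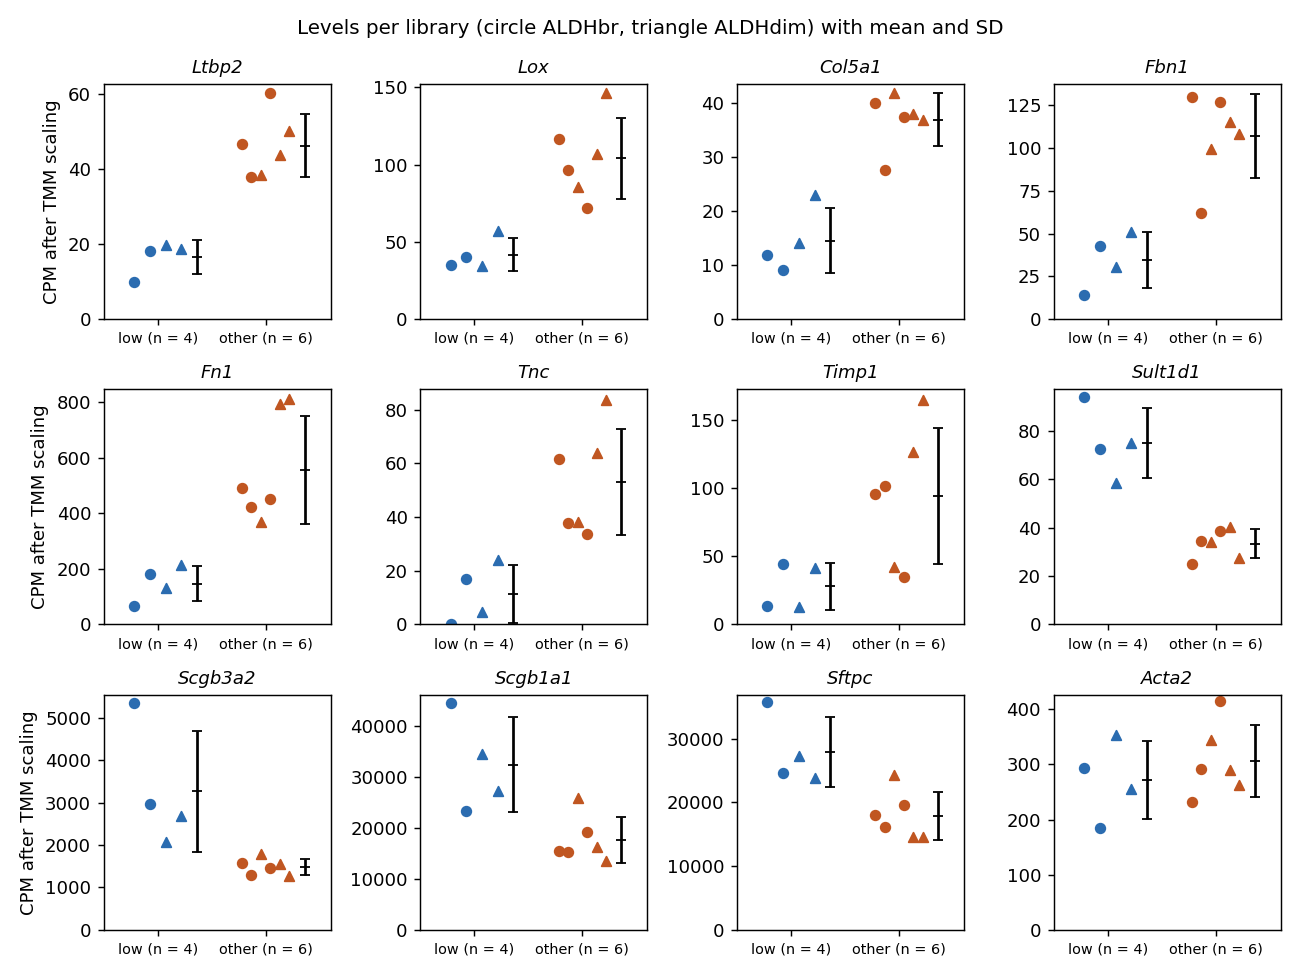
Levels of 12 genes in CPM after TMM scaling (vertical axes, from 0) in the 4 low-collagen lungs (blue) and the 6 other lungs (orange), with circles for ALDHbr and triangles for ALDHdim recipients and bars for mean and SD of each set. Ltbp2 separates at 9.78 to 19.7 against 37.8 to 60.2 CPM, Timp1 and Scgb1a1 overlap, and Acta2 shows no separation.

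Enzymes and chaperones that make and crosslink collagen had 26 tested members, 21 of them with a higher estimate in the other lungs. Past the threshold 1 rose (Lox), while 9 were higher and 1 lower at an unadjusted p under 0.05, and levels were separate for 3 higher and 1 lower member. The median log2 fold change was 0.28. Lox (ENSMUSG00000024529, chr18:52516067-52529867 on GRCm38, minus strand) encodes lysyl oxidase, which crosslinks collagen and elastin. It stood at 35.2 CPM in ALDHbr 2, 40.1 in ALDHbr 3, 34.3 in ALDHdim 2 and 57.0 in ALDHdim 3, and at 71.6 to 147 CPM (median 102) in the other 6. The log2 fold change was 1.31 ± 0.21 (SE, edgeR adjusted p = 0.027), and it was 1.31 among ALDHbr and 1.35 among ALDHdim recipients.

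Loxl1, a lysyl oxidase of the elastic fibre, stood at 64.5, 51.7, 78.2 and 102 CPM in the low-collagen lungs against 112 to 163 CPM, without overlap (log2 fold change 0.88 ± 0.17, edgeR adjusted p = 0.075). Serpinh1, the collagen-specific chaperone HSP47 of the endoplasmic reticulum, stood at 247 to 344 CPM against 388 to 496 CPM, also without overlap (0.58 ± 0.14, edgeR adjusted p = 0.088). Also from this list, and again picked after their values were seen, the procollagen proteases Adamts2 and Bmp1 had log2 fold changes of 0.77 ± 0.20 and 0.73 ± 0.21. The general chaperones and unfolded protein response genes gave a median of 0.06 over 24 tested members, 16 with a higher and 8 with a lower estimate. At an unadjusted p under 0.05, 4 were higher and 1 lower. Their summed level, without TMM scaling, was 4066 to 4637 CPM in the low-collagen lungs and 4836 to 5333 CPM in the others. TMM factors were 0.98 in ALDHdim 3 and 1.06 in ALDHbr 1, so the small gap between these ranges depends on the scaling. Calr, a chaperone of glycoproteins picked after its values were seen, had a log2 fold change of 0.38 ± 0.12.

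The elastic fibre held 2 of the 5 called genes. Of its 13 tested members 2 rose past the threshold (Ltbp2 and Fbn1), 6 were higher and 0 lower at an unadjusted p under 0.05, and 4 had no overlap. The median log2 fold change was 0.40, and the summed level was 592 to 1134 CPM in the low-collagen lungs and 1400 to 1657 CPM in the others.

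Ltbp2 (ENSMUSG00000002020, chr12:84783212-84876532 on GRCm38, minus strand) encodes a protein of the microfibril, in the family named latent TGF-beta binding proteins. The family name is not taken here to mean that this member binds latent TGF-beta. Ltbp2 levels were 9.78 CPM in ALDHbr 2, 18.1 in ALDHbr 3, 19.7 in ALDHdim 2 and 18.7 in ALDHdim 3, and 37.8 to 60.2 CPM (median 45.2) in the others. Unlike the scoring collagens, Ltbp2 placed ALDHdim 3 with the rest of the low-collagen set. The log2 fold change was 1.39 ± 0.21 (SE, edgeR adjusted p = 0.017). Fbn1 (ENSMUSG00000027204, chr2:125300594-125507993 on GRCm38, minus strand) encodes fibrillin-1, the backbone of the microfibril. It stood at 13.7 CPM in ALDHbr 2, 42.7 in ALDHbr 3, 30.3 in ALDHdim 2 and 51.0 in ALDHdim 3, and at 62.2 to 130 CPM (median 112) in the others, with a log2 fold change of 1.58 ± 0.26 (edgeR adjusted p = 0.046). ALDHbr 4, at 62.2 CPM, was the other lung nearest to the low-collagen set.

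Emilin1, a glycoprotein at the surface of elastic fibres, stood at 33.3, 34.9 and 35.3 CPM in ALDHbr 2, ALDHbr 3 and ALDHdim 2 but at 61.2 CPM in ALDHdim 3, just under the lowest other lung (62.5 to 105 CPM). Its log2 fold change was 0.93 ± 0.20 (edgeR adjusted p = 0.078). For Eln, which encodes elastin and was named after its values were seen, it was 1.72 ± 0.40, with means of 186 CPM in the low-collagen and 618 CPM in the other lungs (edgeR adjusted p = 0.12).

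The 5 calls depended on which library was left out and on the tool. Ltbp2 had an edgeR adjusted p of 0.072 without ALDHbr 2 and 0.052 without ALDHdim 5, with log2 fold changes of 1.29 and 1.36, and was called without each of the other 8. Sult1d1 lost its call without the same 2 libraries, with log2 fold changes of -1.02 and -1.08. Lox was not called without ALDHbr 2 (adjusted p = 0.10), ALDHbr 5 (0.054), ALDHdim 2 (0.092), ALDHdim 4 (0.11) or ALDHdim 5 (0.052). Col5a1 and Fbn1 were not called without ALDHbr 2 (0.11 and 0.072), ALDHbr 3 (0.060 for both), ALDHbr 5 (0.054 for both), ALDHdim 2 (0.096 and 0.099), ALDHdim 4 (0.12 for both) or ALDHdim 5 (0.098 for both). Leaving out ALDHbr 3 and ALDHbr 5 together also ended the calls of Lox, Col5a1 and Fbn1 (0.11 for each). The calls of Col5a1 and Fbn1 ended under limma-voom as well (0.073 and 0.084) and where genes needed a mean count of 10 (0.0501 for both). The log2 fold changes with 1 library left out were 1.29 to 1.5 for Ltbp2, 1.18 to 1.52 for Lox, 1.14 to 1.59 for Col5a1, 1.41 to 1.83 for Fbn1 and -1.25 to -1.02 for Sult1d1.

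Basement membrane genes, which build the sheet under epithelium and endothelium, were counted from a list with 20 tested members. None passed the adjusted threshold, while 11 were higher and 0 lower at an unadjusted p under 0.05 and 3 did not overlap. The median log2 fold change was 0.51, with 0.99 among ALDHbr and 0.34 among ALDHdim recipients. Col4a1, the most common type IV collagen chain, had a log2 fold change of 1.11 ± 0.24 (edgeR adjusted p = 0.084), and Col18a1, the precursor of endostatin, one of 0.91 ± 0.22. Both were picked after their values were seen.

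Matrix proteases and their inhibitors had 16 tested members, of which 8 were higher and 0 lower at an unadjusted p under 0.05 and 3 did not overlap. Their median was 0.48, and the summed level was 981 to 1513 CPM in the low-collagen lungs and 1657 to 2147 CPM in the others. Mmp14, a membrane-bound collagenase picked after its values were seen, had a log2 fold change of 1.34 ± 0.27 (edgeR adjusted p = 0.084). Timp1, an inhibitor of these proteases, spanned 12.6 to 44.0 CPM in the low-collagen lungs and 34.8 to 165 CPM in the others. ALDHbr 1 and ALDHdim 1, at 34.8 and 41.9 CPM, overlapped with the low-collagen set, and the log2 fold change of 1.78 ± 0.58 had an edgeR adjusted p of 0.26.

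The list of TGF-beta ligands, receptors and feedback genes had 21 tested members. Of these 13 had a higher and 8 a lower estimate in the other lungs, and 0 passed the adjusted threshold. At an unadjusted p under 0.05, 4 were higher and 1 lower, and the median was 0.22. That median was 0.14 without ALDHbr 2 and 0.15 without ALDHbr 3. Tgfb1, the ligand best known in fibrosis, stood at 22 to 31.3 CPM in the low-collagen lungs and 29.1 to 42.5 CPM in the others (log2 fold change 0.44 ± 0.18, edgeR adjusted p = 0.35). The feedback gene Pmepa1 had a log2 fold change of 0.66 ± 0.15 and the receptor Tgfbr2 one of 0.55 ± 0.13, both picked after their values were seen, and the levels of neither overlapped between the sets.

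**Figure D3:**
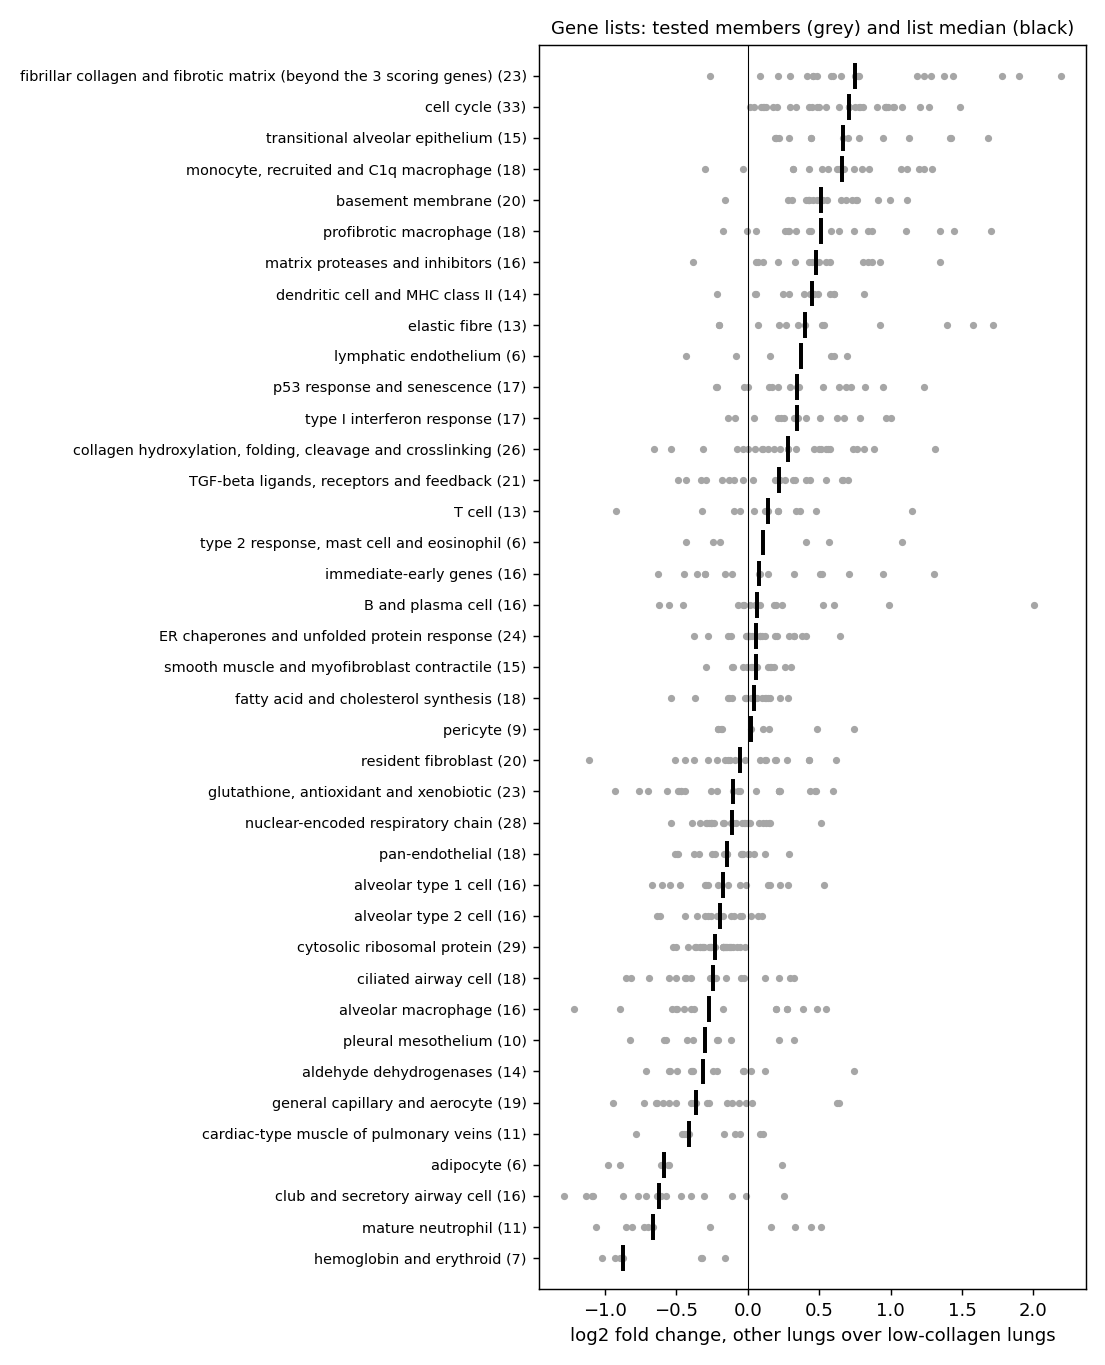
Log2 fold change of the other lungs over the low-collagen lungs (horizontal axis) for the tested members of each gene list with more than 4 of them (rows, number of tested members in parentheses), with grey points for genes and a black bar for the list median. Medians run from 0.75 for the fibrotic matrix to -0.87 for hemoglobin and erythroid genes, and most lists hold genes on both sides of 0.

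Markers of fibroblasts and contractile cells overlapped between the sets. The resident fibroblast list, 20 tested members, had a median of -0.06, with 1 higher and 2 lower at an unadjusted p under 0.05, and its summed level was 3804 to 7686 CPM in the low-collagen lungs and 3430 to 7496 CPM in the others. Without ALDHdim 2 the median was 0.05. Pdgfra, the receptor that marks most lung fibroblasts, stood at 64.5, 40.1, 120 and 80.0 CPM in ALDHbr 2, ALDHbr 3, ALDHdim 2 and ALDHdim 3 and at 65.3 to 149 CPM in the others (log2 fold change 0.12 ± 0.30). Contractile genes of smooth muscle and myofibroblasts had 0 of 15 tested members at an unadjusted p under 0.05 in either direction and a median of 0.05, which was negative without ALDHbr 1 (-0.01) or ALDHbr 3 (-0.10). Acta2, smooth muscle actin and the usual marker of myofibroblasts, stood at 185 to 353 CPM against 232 to 415 CPM (0.16 ± 0.18, or 0.02 without ALDHbr 3 and 0.33 without ALDHdim 2), and Tagln at 50.5 to 90.3 CPM against 59.8 to 85.5 CPM (-0.10 ± 0.16). The 95% interval of the Acta2 difference ran from -0.21 to 0.54, so a difference of the size seen for Col5a1 lies outside it. Pericyte markers had a median of 0.02 over 9 tested members, whose sign turned in 6 of 21 alternatives (-0.09 to 0.10). In bulk tissue, fewer cells of a type and less RNA per cell cannot be told apart.

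Endothelial markers overlapped between the sets too, at 2526 to 5301 CPM summed in the low-collagen lungs and 2538 to 5070 CPM in the others. The median over 18 tested members was -0.15 and turned to 0.11 without ALDHdim 2. Pecam1, the general endothelial adhesion molecule, had a log2 fold change of -0.04 ± 0.22. Capillary markers, 19 tested, had a median of -0.36, with 2 higher and 3 lower at an unadjusted p under 0.05. Without ALDHdim 2 it was -0.17, and without ALDHdim 4 it was -0.24.

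Airway secretory genes had higher estimates in the low-collagen lungs for 15 of 16 tested members. Of these club and secretory cell markers none passed the adjusted threshold, 0 were higher and 11 lower in the other lungs at an unadjusted p under 0.05, and 3 did not overlap. The median log2 fold change was -0.62. Summed levels were 34222 to 61623 CPM in the low-collagen lungs and 22312 to 40320 CPM in the others, an overlap made by ALDHbr 3 on one side and ALDHbr 1 and ALDHdim 1 on the other.

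Scgb3a2, a secretoglobin of the distal airway, stood at 5346 CPM in ALDHbr 2, 2962 in ALDHbr 3, 2081 in ALDHdim 2 and 2692 in ALDHdim 3, and at 1268 to 1783 CPM (median 1508) in the others. The sets did not overlap, but the log2 fold change of -1.13 ± 0.21 had an edgeR adjusted p of 0.061, and 0.043 with the transfer group in the fit. Scgb3a1, a related secretoglobin, stood at 866, 450, 743 and 634 CPM against 187 to 402 CPM (-1.08 ± 0.20, edgeR adjusted p = 0.061). Scgb1a1, the main club cell secretory protein, stood at 44492, 23266, 34349 and 27218 CPM in ALDHbr 2, ALDHbr 3, ALDHdim 2 and ALDHdim 3 and at 13472 to 25853 CPM (median 15878) in the others. Its highest other lung, ALDHdim 1, overlapped ALDHbr 3 (log2 fold change -0.88 ± 0.21, edgeR adjusted p = 0.092).

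Sult1d1 (ENSMUSG00000029273, chr5:87554645-87569027 on GRCm38, minus strand), a cytosolic sulfotransferase, was in no list and was the only called gene that fell. It stood at 93.9 CPM in ALDHbr 2, 72.4 in ALDHbr 3, 58.5 in ALDHdim 2 and 74.9 in ALDHdim 3, and at 25.0 to 40.4 CPM (median 34.3) in the others. The gap between the sets was wider than the spread within the other set, and the log2 fold change was -1.13 ± 0.17 (SE, edgeR adjusted p = 0.017). S100g, a calcium-binding protein, and Prxl2c, a peroxiredoxin-like protein, had the next smallest p among genes lower in the other lungs, after Scgb3a2 and Scgb3a1. Predicted genes and clone names are left out of this ranking. The log2 fold changes of S100g and Prxl2c were -0.92 ± 0.18 and -0.79 ± 0.16 (edgeR adjusted p = 0.075 and 0.077). S100g was 170 to 385 CPM against 116 to 178 CPM, overlapping at ALDHdim 2, and Prxl2c was 138 to 272 CPM against 86.7 to 122 CPM without overlap.

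Ciliated airway cells gave 0 higher and 8 lower of 18 tested markers at an unadjusted p under 0.05, 4 of the 18 lower without overlap, and a median of -0.25. Estimates were lower for 14 and higher for 4, and the median was -0.50 among ALDHbr and -0.13 among ALDHdim recipients. The summed level overlapped, at 1125 to 1396 CPM in the low-collagen lungs and 705 to 1193 CPM in the others. Foxj1, the regulator of motile cilia, overlapped between the sets, at 107 to 125 CPM against 75.8 to 158 CPM (-0.05 ± 0.16). Tppp3, a microtubule-associated protein chosen after its values were seen, had a log2 fold change of -0.82 ± 0.19. Type 2 alveolar cell markers, 16 tested, had 0 higher and 3 lower and a median of -0.19, which was -0.13 without ALDHdim 2. Sftpc, surfactant protein C, stood at 35813, 24586, 27203 and 23816 CPM in ALDHbr 2, ALDHbr 3, ALDHdim 2 and ALDHdim 3 and at 14603 to 24332 CPM in the others. ALDHdim 1, at 24332 CPM, overlapped ALDHdim 3 (log2 fold change -0.64 ± 0.19, edgeR adjusted p = 0.15). Type 1 alveolar cell markers, 16 tested, had 1 higher and 5 lower and a median of -0.17. Ager, their most used marker, stood at 1419 to 2058 CPM against 1255 to 2026 CPM (-0.14 ± 0.16, and -0.24 to -0.03 with 1 of ALDHbr 1, 2, 3 or 5 left out).

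No member of the transitional alveolar epithelium list passed the adjusted threshold. All 15 tested members had a positive log2 fold change, 8 were higher and 0 lower at an unadjusted p under 0.05, and the median was 0.67. The summed level, without TMM scaling, was 1328 to 2045 CPM in the low-collagen lungs and 2124 to 2967 CPM in the others. After TMM scaling, the mean over tested members of log2 CPM centred on each gene's mean overlapped between the sets. It was -0.14 in ALDHbr 1 and -0.03 in ALDHdim 1 of the other lungs. In the low-collagen set it was -0.09 in ALDHbr 3 and -0.0007 in ALDHdim 3. Krt8, the keratin the state is named for, stood at 112 to 154 CPM against 125 to 208 CPM (0.29 ± 0.16, edgeR adjusted p = 0.51). Cdkn1a, an inhibitor of the cell cycle that p53 induces, split the low-collagen set: it was 58.7 CPM in ALDHbr 2 and 80.7 in ALDHdim 2 but 277 in ALDHbr 3 and 265 in ALDHdim 3, within the 259 to 403 CPM of the other lungs. The p53 response list had 6 of 17 tested members higher and 0 lower and a median of 0.34, with 0.19 without ALDHdim 2 and 0.56 without ALDHbr 3.

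The same split of the low-collagen set, libraries labelled 2 below those labelled 3, was seen in genes of profibrotic macrophages. Spp1, osteopontin of profibrotic macrophages, was 143 CPM in ALDHbr 2 and 163 in ALDHdim 2, but 1752 in ALDHbr 3 and 868 in ALDHdim 3, and 731 to 3251 CPM in the other lungs. Gpnmb, from the same macrophages, was 5.87 CPM in ALDHbr 2 and 13.1 in ALDHdim 2, 78.9 in ALDHbr 3 and 55.3 in ALDHdim 3, and 51.8 to 81.7 CPM in the others. Arg1, arginase of alternatively activated macrophages, was 1.96 and 2.52 CPM in the libraries labelled 2 and 12.9 and 9.36 CPM in those labelled 3, within the 5.07 to 41.3 CPM of the others. So only the libraries labelled 2 lay under the other lungs for these 3 genes, and none passed (log2 fold changes 1.44 ± 0.81, 0.87 ± 0.48 and 1.70 ± 0.70, edgeR adjusted p = 0.53, 0.52 and 0.36). Without ALDHbr 3 the values for Spp1 and Gpnmb were 2.33 and 1.39, and without ALDHdim 2 that for Gpnmb was 0.47. The profibrotic macrophage list had 6 of 18 tested members higher and 0 lower at an unadjusted p under 0.05 and a median of 0.51.

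Monocyte, recruited and C1q macrophage markers had 7 of 18 tested members higher and 0 lower at an unadjusted p under 0.05, with 0 free of overlap and a median of 0.66. The list score, the mean over members of log2 CPM centred on each gene's mean, was -0.88 in ALDHbr 2 and -1.03 in ALDHdim 2, against 0.10 in ALDHbr 3 and 0.05 in ALDHdim 3 and -0.37 to 0.69 in the others. Lyz2, a lysozyme gene of this list, did not follow, at 12086 to 20577 CPM against 11149 to 14290 CPM (-0.30 ± 0.17, or -0.18 without ALDHbr 3). Dendritic cell and MHC class II genes had 7 of 14 tested members higher and 0 lower and a median of 0.45. Type I interferon response genes had 6 of 17 tested members higher and 0 lower, a median of 0.34, and summed levels that did not overlap (728 to 854 CPM against 970 to 1287 CPM). Neutrophil markers, 11 tested, had 0 higher and 0 lower, and their median of -0.66 turned to 0.58 without ALDHdim 2, in which S100a8, a neutrophil calcium-binding protein, was 300 CPM against 41.7 to 49.2 CPM in the rest of its set. Igha, the heavy chain of IgA, was 31.8 to 221 CPM against 90.8 to 281 CPM (0.99 ± 0.56, or 1.62 without ALDHbr 3 and 0.64 without ALDHdim 2).

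All 33 tested cell cycle genes had a positive log2 fold change, with 12 higher at an unadjusted p under 0.05, 2 without overlap and a median of 0.71. The median was 0.36 without ALDHdim 2. Mki67, the marker of cycling cells, was 5.87 CPM in ALDHbr 2 and 6.56 in ALDHdim 2, 23.3 in ALDHbr 3 and 23.0 in ALDHdim 3, and 22.8 to 58.3 CPM in the others (log2 fold change 1.27 ± 0.39, edgeR adjusted p = 0.20). Again the libraries labelled 2 were lowest and those labelled 3 met the lower end of the other lungs. Cytosolic ribosomal protein genes had a negative log2 fold change in all 29 tested members, 0 higher and 5 lower, with a median of -0.23, or -0.10 without ALDHbr 2. That median was -0.36 among ALDHbr and -0.04 among ALDHdim recipients. The list score overlapped, at -0.17 to 0.45 in the low-collagen lungs and -0.44 to 0.18 in the others.

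**Figure D4:**
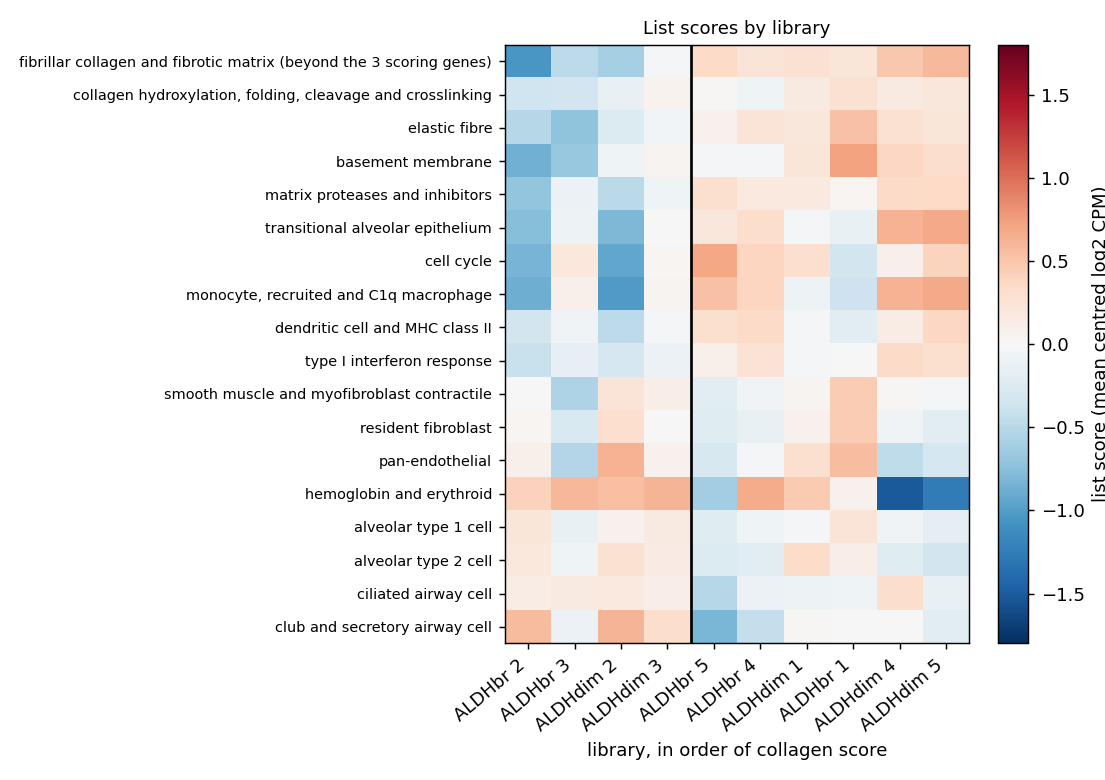
List scores (colour, mean over tested members of log2 CPM centred per gene, blue for below and red for above the gene's mean) by gene list (rows) and library in order of collagen score (columns), with the low-collagen lungs left of the line. The matrix list runs from -1.04 in ALDHbr 2 to 0.59 in ALDHdim 5, and the lists of monocytes and recruited macrophages, cell cycle and transitional epithelium are lowest in ALDHbr 2 and ALDHdim 2 but near 0 in ALDHdim 3.

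Hemoglobin RNA varied more among the other lungs than among the low-collagen lungs. The list of hemoglobin and erythroid genes had 0 of 7 tested members higher and 1 lower at an unadjusted p under 0.05, a median of -0.87 and summed levels of 11092 to 13599 CPM against 1720 to 13862 CPM. Hbb-bs, an adult beta-globin gene, stood at 9588 to 10967 CPM in all 4 low-collagen lungs, but at 1212 CPM in ALDHdim 4, 1544 in ALDHdim 5, 3420 in ALDHbr 5, 5444 in ALDHbr 1, 8450 in ALDHdim 1 and 10100 in ALDHbr 4. The 2 lungs of highest collagen score thus had the least hemoglobin RNA. The log2 fold change was -1.02 ± 0.56 (edgeR adjusted p = 0.52), and Hba-a1, an alpha-globin gene, had one of -0.87 ± 0.61. Near-identical copies of both globin genes could share reads, so their values are uncertain one by one. The part of blood content in the other results was not tested. Among aldehyde dehydrogenases, the enzyme family by which the transferred cells were sorted, 0 of 14 tested members were higher and 4 lower at an unadjusted p under 0.05, with a median of -0.32. Aldh1a1, which is also a club cell marker, stood at 901 to 1366 CPM in the low-collagen lungs and 576 to 1065 CPM in the others (-0.40 ± 0.18, edgeR adjusted p = 0.39).

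The lists not yet described had no called member, and their counts are given as higher and lower in the other lungs at an unadjusted p under 0.05. Alveolar macrophage markers had 1 higher and 3 lower of 16 tested and a median of -0.27, which was -0.05 without ALDHbr 2. T cell markers had 1 and 1 of 13 (median 0.14), and B and plasma cell markers 1 and 0 of 16 (median 0.07). Mesothelial markers of the pleura had 0 and 3 of 10 (median -0.30), adipocyte markers 0 and 3 of 6 (median -0.58), and cardiac-type muscle of the pulmonary veins 0 and 0 of 11 (median -0.41, or -0.15 without ALDHbr 2). Lymphatic markers had 2 and 0 of 6 (median 0.37), type 2 response genes 2 and 0 of 6 (median 0.11), and platelet genes 0 and 1 of 4. Respiratory chain genes had 0 and 3 of 28 (median -0.11), antioxidant genes 3 and 6 of 23 (median -0.11), fatty acid and cholesterol synthesis genes 0 and 1 of 18 (median 0.04), and immediate-early genes 3 and 2 of 16 (median 0.08). The background for these counts is 6.49% higher and 5.53% lower.

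Within each transfer group the comparison is 3 other lungs over 2 low-collagen lungs. Of the 43 named genes beyond the scoring genes, 36 had the same sign in both transfer groups. Some of them were chosen by small p over these same libraries, which favours equal signs. The count is therefore no independent support, and it was not made over all genes. Ltbp2 had log2 fold changes of 1.72 among ALDHbr and 1.19 among ALDHdim recipients. For Fbn1 they were 1.82 and 1.44, for Col5a1 1.77 and 1.11, for Fn1 1.86 and 1.95, and for Sult1d1 -1.31 and -0.97. The matrix list had a median of 0.86 among ALDHbr and 0.54 among ALDHdim recipients, and the club cell list -0.64 and -0.59. In 8 lists the medians of the transfer groups had opposite signs, among them endothelium (0.39 and -0.53), capillary (0.12 and -0.59), resident fibroblast (0.21 and -0.24), contractile (0.36 and -0.21) and neutrophil markers (0.25 and -0.74). The difference between transfer groups was not tested for lists. Opposite signs were seen for 7 genes, Acta2, Foxj1, Lyz2, Pdgfra, Pecam1, S100a8 and Tagln. For Pdgfra the values were 0.94 and -0.40. A test of the difference between the transfer groups gave 0 genes past the threshold (edgeR, smallest adjusted p = 0.89, 487 genes at an unadjusted p under 0.05).

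**Figure D5:**
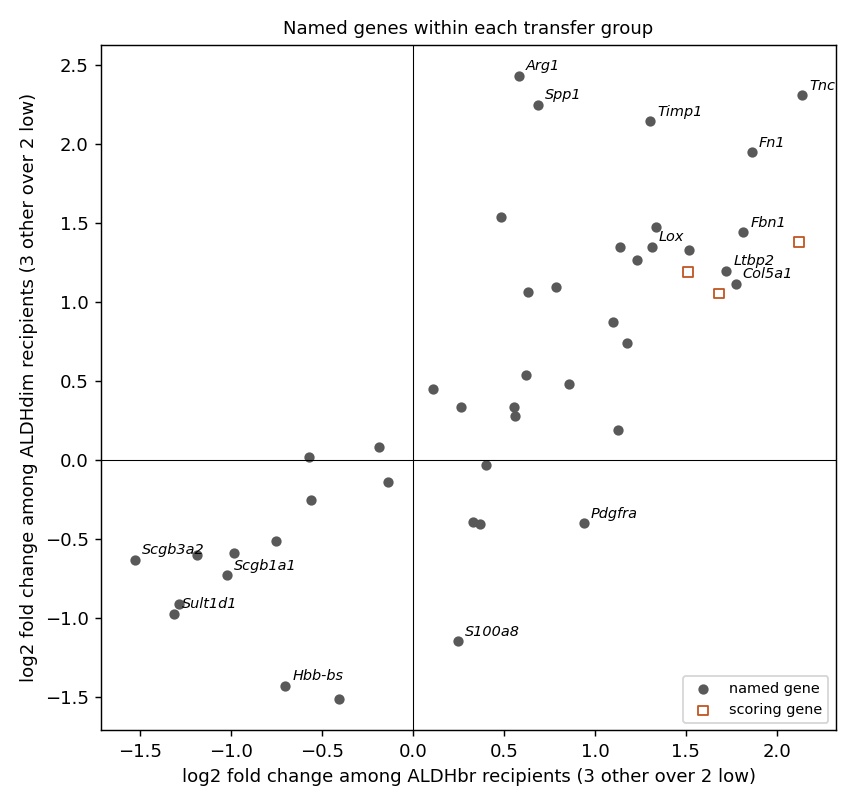
Log2 fold change of other over low-collagen lungs among ALDHbr recipients (horizontal axis) against the same among ALDHdim recipients (vertical axis) for the named genes (grey) and the scoring genes (orange squares). Matrix genes such as Fbn1 (1.82 and 1.44) lie at the upper right and Scgb3a2 (-1.53 and -0.63) at the lower left, while Arg1 (0.58 and 2.43) and Spp1 (0.69 and 2.25) differ most in size.

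With the transfer group in the fit, 15 of the 43 named genes passed the threshold (beside 0.240% of all tested genes), 10 higher and 5 lower. Added to the 5 called without it were C1qtnf6, Ccn2, Col5a2, Emilin1, Fn1 and Loxl1 among those higher, and Prxl2c, S100g, Scgb3a1 and Scgb3a2 among those lower in the other lungs. With the collagen score in place of the sets, 18 of the 43 passed (beside 1.90% of all tested genes), 12 higher and 6 lower. These take in Tnc (edgeR adjusted p = 0.0048), Serpinh1 (0.037), Scgb1a1 (0.027) and Sftpc (0.041), and leave out Scgb3a1 (0.11). Over all list members tested in that fit, 9 of 23 matrix genes, 7 of 20 basement membrane genes, 6 of 26 collagen-processing genes, 5 of 13 elastic fibre genes and 4 of 15 transitional epithelium genes rose with the score, beside 1.26% of all genes. Falling with it were 3 of 16 club cell genes, beside 0.636%. None of 33 cell cycle genes and none of 15 contractile genes passed in either direction. Since the score is made of collagen mRNA from these same libraries, these counts describe the libraries and are no independent support. Some named genes were chosen by small p in the same libraries, so high shares among them were built in for both fits.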

How the data were processed

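Bulk RNA was measured by BRB-seq, per the labels' protocols: each sample is barcoded from an oligo-dT primer, then pooled, so reads come from the 3' end and counts do not grow with length. Among the tools in the submitters' processing notes are HISAT2 2.2.1 and featureCounts 2.0.1, with Trim Galore 0.6.7, UMI-tools and DESeq2. Their roles are not stated, and the builds named are GRCm38 and GRCh38. The authors deposited raw counts, whole numbers for 33347 genes in 10 libraries. The sources used here do not say whether molecular identifiers were collapsed or strand was used. If not, PCR copies and antisense reads add to counts.

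The test was edgeR 4.0.16's quasi-likelihood test (robust, TMM scaling) in R 4.3.3, after filterByExpr by transfer group with a minimum count of 10. This left 10841 genes beside the 3 scoring genes, 97.3% of counts among them. P-values were adjusted by Benjamini-Hochberg, with a threshold of 0.05. Levels of single genes are CPM over tested genes after TMM scaling. Those of the scoring genes, and all summed levels of lists, are CPM over totals without TMM scaling. The sums take in list members that were not tested. TMM factors were 0.887 to 1.01 in the low-collagen lungs and 0.998 to 1.06 in the others. Unscaled sums therefore tend to be lower in the low-collagen lungs than scaled ones would be. Simulated data for other against low (10844 genes) drew each gene independently, with the sets fixed in advance. The test then recovered 12.7% of 1.5-fold, 73.3% of 2-fold, 92% of 3-fold and 96% of 4-fold changes, with 3.07% of calls false. The real sets were chosen by measured collagen levels and coincide with replicate numbers. The share of false calls in the simulation therefore does not carry over to the 5 calls. Named genes were the scoring genes, called genes, the genes of smallest p up to 5 per direction, up to 3 members of each list with a called gene, and a fixed set. Predicted genes and clone names were left out of the choice by p over all genes. Members and lists were chosen with earlier results of these data known. No 2 libraries agreed within counting noise. Gene positions come from the GENCODE annotation of GRCm38. Alternatives were scaling, filters, DESeq2 1.42.0, limma 3.58.1 (voom), covariates and libraries left out.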

Additional observations from a re-analysis of the deposited data

Results flagged for a closer look

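Within a set, 11 of 116 groups of values held a library far from the rest, where chance alone flags about 1 in 20, or 5.8. That rate holds for normally distributed values. The groups take in the 3 scoring genes and share the same 10 libraries, so they are not independent. In the low-collagen set, ALDHbr 2 was far below the rest for Ccn2 (102 CPM against 151 to 157) and Ltbp2 (9.78 CPM against 18.1 to 19.7). ALDHdim 3 was far above for Emilin1 (61.2 CPM against 33.3 to 35.3). ALDHdim 2 stood apart for S100a8 (300.2 CPM against 41.7 to 49.2) and for Msln, a mesothelial surface protein (24.2 CPM against 33.6 to 35.2). ALDHbr 3 had 22807 genes at equal depth against 16527 to 17566, and immunoglobulin genes took 0.431% of its counts against 0.0540 to 0.0887%. Among the other lungs, ALDHbr 1 was apart for Lyz2 (11149 CPM against 13429 to 14290) and Pdgfra (149 CPM against 65.3 to 85.0), ALDHbr 4 for Col5a1 (27.5 CPM against 36.8 to 41.9) and ALDHbr 5 for genes at equal depth (21577 against 16228 to 18056).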

How the results depend on the processing

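The low-collagen set is exactly the libraries labelled 2 and 3 in both transfer groups, so the planned replicate block as a fixed term takes up the whole difference and could not be fitted. With 2 alternatives chosen after seeing the data, the number as a random block in limma-voom and same-numbered libraries summed in edgeR, 0 genes passed (0 and 0), with 664 and 573, and 517 and 382, at an unadjusted p under 0.05 and smallest adjusted p of 0.054 and 0.34. The consensus correlation within a number was 0.04, estimated with the difference between the sets taken out. Since the sets follow the numbers, it does not measure the full likeness of same-numbered libraries. Deviations of same-numbered libraries from their group means correlated across genes at 0.06, 0.37, 0.15, 0.26 and 0.28 for numbers 1 to 5, and those of libraries with different numbers (20 pairs) at -0.39 to 0.36. The count of genes past the threshold (5, with 4 higher and 1 lower) kept its value under DESeq2 size factors, upper-quartile factors and without hemoglobin, immunoglobulin and mitochondrial genes. It was 314 (249 and 65) with no low-count filter, 3 (2 and 1) when genes needed a mean count of 10, 129 (80 and 49) by DESeq2, 6 (2 and 4) by limma-voom with sample weights, 26 (19 and 7) with the transfer group as covariate, 206 (137 and 69) with the collagen score, and 7 (3 and 4) without ALDHbr 3 and ALDHbr 5. At a threshold of 0.01 it was 0 (704 higher and 600 lower at an unadjusted p under 0.05 by edgeR), and at 0.1 it was 98 (62 and 36). Leaving out each library in turn gave 0 to 94 genes, 0 to 56 higher and 0 to 38 lower. It was 94 without ALDHbr 1, 10 without ALDHbr 3, 3 without ALDHbr 5, 16 without ALDHdim 1, 38 without ALDHdim 3, 2 without ALDHdim 4, and 0 without ALDHbr 2 or ALDHdim 5. The cause was not tested.

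Signs turned for 5 named genes. Foxj1 was 0.0337 with no filter and 0.0304 with the score, and -0.16 to 0.0429 with 1 library left out. Pdgfra was -0.0458 without ALDHbr 3 and ALDHbr 5 and -0.12 to 0.48 with 1 left out. Pecam1 was 0.0359 with no filter and -0.19 to 0.15 with 1 left out, Tagln was -0.24 to 0.0511 and S100a8, from -0.81, -1.09 to 0.58, positive only without ALDHdim 2. List medians that turned, beside those in the text above, were those of fatty acid and cholesterol synthesis (-0.01 to 0.10), type 2 response (-0.08 to 0.20), B cell (-0.00 to 0.34), immediate-early (-0.03 to 0.19) and antioxidant genes (-0.23 to 0.01). With 1 library left out, Msln was 0.17 without ALDHdim 2 against 0.32 with all. The difference (other minus low) in total counts was then 45180 to 516808, that in genes at equal depth was -1206 to 951, that in immunoglobulin share -0.0554 to 0.0703481 percentage points and that in mitochondrial share -0.652 to 0.0593482. Those in genes and in immunoglobulin turned without ALDHbr 3 and that in mitochondrial share without ALDHbr 1. The sets stayed balanced by transfer group within 1 library however 1 was left out. With ALDHbr 2 at 588063 counts, low genes such as Tnc are the least certain there.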
